A study of Mus musculus with 6 samples.

Results

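Transcripts of neutrophil granules and of bone marrow (BM) stroma were read in libraries made from sorted T cells, and their levels were compared library by library. The set held 10 genes, of which 8 were among the 14051 genes of the table, and Ngp and S100a9 were not analysed here. The genes were picked by name with values of these libraries already known, so the levels below are a description and the fits beside them support nothing on their own. In the table were 6 neutrophil genes (Ltf, Camp, Lcn2, Mmp8, Retnlg and S100a8) and 2 stromal genes (Cxcl12 and Vcam1). The question was whether the granule genes and Cxcl12 vary together across libraries, and whether this follows the stage at which each granule protein is made.

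The study asked how glucocorticoid (GC) given around haploidentical BM transplantation (BMT) acts on donor T cells that pass through the BM. Recipients in both groups were B6D2F1 mice, and their purified donor CD3+ T cells came from the B6.CD45.1 strain. By the methods of the study, mice received total body irradiation before transplantation. The 3 GC-treated libraries came from recipients given dexamethasone, a synthetic glucocorticoid, intraperitoneally at 5 mg/kg/day from day -1 to day 5, and the 3 vehicle-treated libraries from recipients given methyl β-cyclodextrin over the same days. On day 5 an injected anti-CD45 antibody marked cells inside vessels, and marked CD45.1+CD8+ cells were sorted after the BM of 2 to 3 mice had been pooled for each biological group. The sources used here do not give the age of the mice or whether each library had its own pool, so p-values measure only the spread between these libraries, which may be technical.

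Neutrophils build their granules in a fixed order while they mature in the BM. Promyelocytes make azurophil granule proteins such as myeloperoxidase, myelocytes and metamyelocytes make specific granule proteins such as lactoferrin, and later cells make the proteins of gelatinase granules. Each set of transcripts declines as the next one is made. Calprotectin, of which S100A8 is a subunit, fills the cytosol and its transcripts persist late. CXCL12, made by perivascular stromal cells, holds hematopoietic cells and neutrophils in the BM through CXCR4, and VCAM1 on stroma, endothelium and marrow macrophages binds α4β1 integrin.

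Depth was 67887570 to 76888118 reads in GC-treated and 60949593 to 64801008 reads in vehicle-treated libraries, summed over the table. Cd8a, which encodes the CD8 α chain used in the sort, was read at 68730 to 93850 normalized counts in GC-treated and at 63285 to 84617 in vehicle-treated libraries, and all 12 listed CD8 T cell genes in the table passed the filter. A normalized count is the number of reads divided by the size factor of the library. The 6 neutrophil genes together made up 0.00185%, 0.0176% and 0.0116% of the reads of GC-treated 1, 2 and 3, against 0.000205%, 0.000425% and 0.00401% of those of vehicle-treated 1, 2 and 3. The neutrophil genes thus took few reads in a deep library of T cells. Groups are named by their labels throughout. Fkbp5 and Tsc22d3, genes that the glucocorticoid receptor is known to induce, were looked at after their values were seen. Fkbp5 was read at 21148, 16401 and 14780 normalized counts in the libraries labelled GC-treated 1, 2 and 3, against 24889, 32705 and 21271 in those labelled vehicle-treated 1, 2 and 3, with an adjusted limma p of 0.62. Every library labelled GC-treated was thus lower in Fkbp5 than every one labelled vehicle-treated, narrowly so for GC-treated 1 and vehicle-treated 3. The same order of groups was found in 6.4% of the 11649 tested genes. For Tsc22d3 the groups overlapped at 1521 to 4689 and 2619 to 4755 normalized counts. Neither gene separated the groups in the direction of induction, and the directions below rest on the labels alone. In bulk RNA, more cells of a type and more RNA per cell cannot be told apart.

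The specific granule genes were read highest in GC-treated 2 and GC-treated 3 and lowest in vehicle-treated 1. Ltf encodes lactoferrin, the iron-binding protein of specific granules, and lies on chromosome 9 (110848339 to 110871835, + strand, GRCm39). It was read at 617, 5785 and 2499 normalized counts in GC-treated 1, 2 and 3, against 0, 32.4 and 971 in vehicle-treated 1, 2 and 3. The groups overlapped, since vehicle-treated 3 lay above GC-treated 1. Vehicle-treated 1 had no Ltf read, and against a floor of 3 reads in that library GC-treated 1 was at least 189-fold and GC-treated 2 at least 1768-fold higher. Floors and intervals cover counting error only.

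Camp encodes the precursor of cathelicidin, an antimicrobial peptide of specific granules (chromosome 9, 109676442 to 109678685, - strand). Camp stood at 32.0, 954 and 497 normalized counts in GC-treated 1, 2 and 3, against 9.82, 14.1 and 215 in vehicle-treated 1, 2 and 3. Lcn2 encodes lipocalin 2, which binds bacterial siderophores (chromosome 2, 32274645 to 32278264, - strand). It stood at 135, 1351 and 1017 normalized counts in the GC-treated libraries in the same order, against 18.5, 54.1 and 384 in the vehicle-treated libraries. For both genes, as for Ltf, GC-treated 1 lay between vehicle-treated 2 and vehicle-treated 3, so the groups overlapped.

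The late stage genes had another peak. Mmp8 encodes neutrophil collagenase (chromosome 9, 7558457 to 7568487, + strand), and in mouse BM its transcripts mark later neutrophils than those of Ltf. The label late stage refers to the timing of transcripts here, not to a class of granule. Mmp8 stood at 43.3, 268 and 987 normalized counts in GC-treated 1, 2 and 3, against 0, 0 and 56.3 in vehicle-treated 1, 2 and 3. Retnlg, which encodes resistin-like γ of mature mouse neutrophils (chromosome 16, 48692547 to 48694862, + strand), was read at 6.93, 101 and 301 normalized counts in the GC-treated libraries and at 0, 0 and 27.1 in the vehicle-treated libraries. Both peaked in GC-treated 3, and GC-treated 1 lay under vehicle-treated 3. Against a floor of 3 reads in vehicle-treated 1, GC-treated 3 was at least 302-fold higher for Mmp8 and at least 92.1-fold higher for Retnlg. Mmp8 overlaps the noncoding gene Gm31751 on the other strand, and as the kit kept no strand, reads of the 2 genes cannot be told apart.

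S100a8 was the neutrophil gene with the least spread. It encodes a calcium-binding subunit of calprotectin and lies on chromosome 3 (90567118 to 90578128, + strand). S100a8 stood at 398, 3383 and 2556 normalized counts in GC-treated 1, 2 and 3, against 109, 179 and 1059 in vehicle-treated 1, 2 and 3. Every library held S100a8 reads, 100 in vehicle-treated 1, where Ltf, Mmp8 and Retnlg had none. Per kilobase of exon, S100a8 had the highest mean level of the 8 genes in both groups, at 2145 ± 1564 in GC-treated and 456 ± 537 in vehicle-treated libraries (SD, n = 3 each). Ltf followed at 834 ± 735 and 94.0 ± 155 normalized counts per kilobase (SD, n = 3 each).

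**Figure D1:**
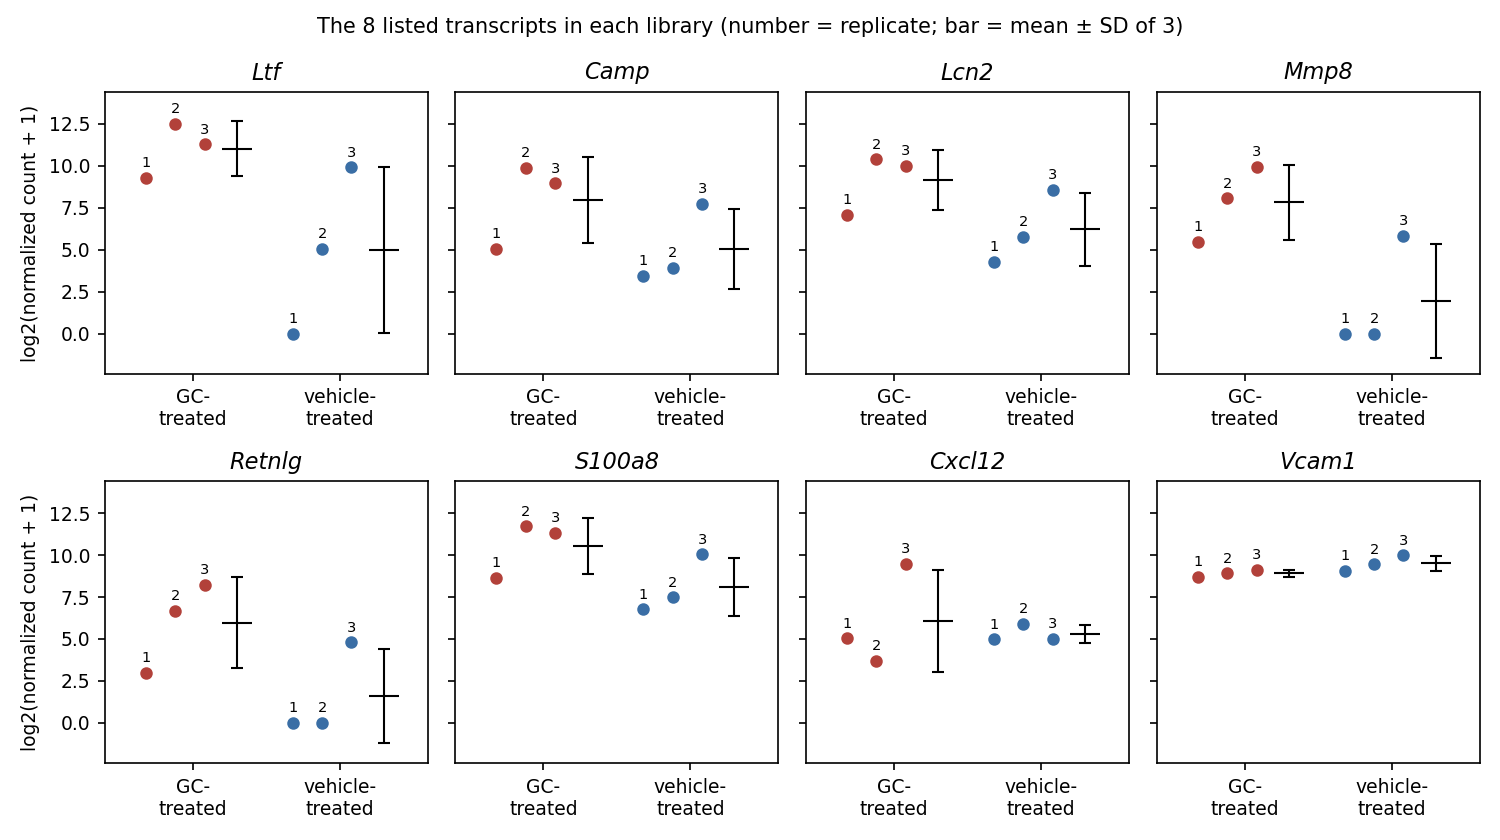
Level of the 8 genes in each library, as log2(normalized count + 1) on the vertical axis, with GC-treated libraries in red and vehicle-treated libraries in blue, numbered by replicate, and a bar for the mean ± SD of 3. In the 6 neutrophil genes GC-treated 1 lies under vehicle-treated 3, Cxcl12 stands apart in GC-treated 3 only, and Vcam1 spans a narrow range.

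All 6 neutrophil genes placed the libraries in nearly the same order. Their values increased through vehicle-treated 1, vehicle-treated 2, GC-treated 1 and vehicle-treated 3, with vehicle-treated 1 and 2 tied at 0 for Mmp8 and Retnlg. Above these came GC-treated 3 and then GC-treated 2 for Ltf, Camp, Lcn2 and S100a8, and the reverse for Mmp8 and Retnlg. Over the 15 pairs of these genes, Pearson's r on log2 values over the 6 libraries ran from 0.876 to 0.995, and Spearman's rho from 0.93 to 1. These are descriptions, since the genes were chosen together and share the same libraries. Averaged over the 6 genes, the deviation from each gene's mean on the log2 scale was -0.28, 3.18 and 3.26 in GC-treated 1, 2 and 3, against -4.28, -2.99 and 1.13 in vehicle-treated 1, 2 and 3.

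The spread between libraries of one group was large beside the difference between groups. The SD of the log2 values over all 6 libraries was 4.67 for Ltf, which none of the 11649 tested genes exceeded, 4.12 for Mmp8 and 3.42 for Retnlg. It was 2.73 for Camp, 2.41 for Lcn2 and 2.03 for S100a8. Within groups the log2 SD of Ltf was 1.63 in GC-treated and 4.96 in vehicle-treated libraries (n = 3 each). The share of reads on mitochondrial genes was 0.902%, 0.400% and 0.615% in GC-treated 1, 2 and 3, against 0.910%, 1.13% and 0.757% in vehicle-treated 1, 2 and 3. It was lowest in the same libraries in which the neutrophil genes were highest, and its part in their levels was not tested.

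In the fit over all genes, none of the 8 genes passed the adjusted threshold between GC-treated and vehicle-treated libraries. By limma with Benjamini-Hochberg adjustment, 0 of the 8 passed an adjusted p of 0.05 in either direction, beside 0% of the 11649 tested genes higher and 0% lower. At an unadjusted p under 0.05, limma had Ltf, Lcn2, Mmp8, Retnlg and S100a8 higher and Vcam1 lower, beside 2.12% of tested genes higher and 5.07% lower. That count of 5 neutrophil genes was 0 with DESeq2 and 1 without GC-treated 2 (Mmp8). It was 2 without GC-treated 3, vehicle-treated 1 or vehicle-treated 2 (Ltf and Mmp8). It was 6 without GC-treated 1 or vehicle-treated 3, and 6 with the replicate number as a block in the fit. At the adjusted threshold edgeR called 0 genes of the whole table and DESeq2 called 0 higher and 2 lower, none of them among the 8 (DESeq2 gave no adjusted p for Cxcl12). The log2 fold change was 6.02 ± 2.02 for Ltf, 5.88 ± 1.63 for Mmp8 and 4.36 ± 1.64 for Retnlg (SE, n = 3 each), each with an adjusted limma p of 0.62. It was 2.94 ± 1.11 for Lcn2, 2.93 ± 1.38 for Camp and 2.45 ± 0.93 for S100a8 (SE, n = 3 each), again with an adjusted limma p of 0.62. Single libraries moved these values: the log2 fold change of Ltf was 3.53 without vehicle-treated 1 and 8.49 without vehicle-treated 3, and that of Camp was 1.97 without GC-treated 2 and 4.396 without GC-treated 1. Folds of genes with libraries at 0 depend on the value added before the logarithm: with 10 in place of 1, the log2 fold change of Retnlg was 2.43, and edgeR on reads gave 3.14 for Ltf.

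All 6 neutrophil genes had positive log2 fold changes, where 48.5% of tested genes did. The choice of genes had these values in view, so nothing is read from that count. In none of the 8 genes were the groups apart, although 6.4% of tested genes had every GC-treated library above every vehicle-treated library and 6.4% had every GC-treated library below. Retnlg passed the filter on low values through GC-treated 2, GC-treated 3 and vehicle-treated 3 alone.

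The mixture of stages differed between libraries as well as the amount. Each library's reads of the 6 neutrophil genes were divided into specific granule genes (Ltf, Camp and Lcn2), late stage genes (Mmp8 and Retnlg) and the cytosolic gene S100a8, a division that no size factor alters. The specific granule share was 63.6% (61.1% to 66.1%), 68.3% (67.5% to 69.1%) and 51.1% (up to 52.1%) in GC-treated 1, 2 and 3, with exact 95% Clopper-Pearson intervals. In vehicle-treated 1, 2 and 3 it was 20.6% (13.9% to 28.8%), 35.9% (30.1% to 42.1%) and 57.9% (56.0% to 59.8%). The means were 61.0% ± 8.92 in GC-treated and 38.1% ± 18.7 in vehicle-treated libraries (SD, n = 3 each), a difference of 22.9 percentage points, and the groups overlapped.

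Late stage transcripts set GC-treated 3 apart from the other libraries. Mmp8 and Retnlg took 4.07%, 3.12% and 16.4% of the neutrophil reads in GC-treated 1, 2 and 3, against 0%, 0% and 3.08% in vehicle-treated 1, 2 and 3. The zeros rest on 126 and 259 neutrophil reads and allow shares of up to 2.89% in vehicle-treated 1 and 1.41% in vehicle-treated 2 by the exact interval. Of the late and specific granule reads together, the late share was 24.3% (23.2% to 25.4%) in GC-treated 3, against 6.02% (4.60% to 7.71%) in GC-treated 1, 4.36% (3.94% to 4.82%) in GC-treated 2 and 5.05% (4.02% to 6.24%) in vehicle-treated 3. The 3 libraries other than GC-treated 3 that held late reads thus lay within a few percentage points of each other. In reads, Mmp8 over Ltf was 0.0701, 0.0463 and 0.395 in GC-treated 1, 2 and 3 and 0.0580 in vehicle-treated 3. Of the 6 genes, those of the late stage alone were higher in GC-treated 3 than in GC-treated 2, with GC-treated 3 at 0.432 times the normalized count of GC-treated 2 for Ltf, 0.521 for Camp, 0.753 for Lcn2 and 0.756 for S100a8, but at 3.68 times for Mmp8 and 2.98 times for Retnlg. The wider lists, which include genes of these 6, did not part this way. In them 3 of 7 gelatinase and late stage genes (Mmp8, Retnlg and Mmp9) were higher in GC-treated 3 than in GC-treated 2. So were 2 of 8 specific granule genes (Hp and Fcnb) and 45.9% of all table genes. Outside the 6 genes, Mmp9 alone of the late stage list was thus higher in GC-treated 3, against Hp and Fcnb of the specific granule list.

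S100a8 took the rest, at 28.6% to 32.5% of the neutrophil reads in GC-treated libraries and at 79.4%, 64.1% and 39.04% in vehicle-treated 1, 2 and 3. The cytosolic share was thus largest in the libraries with the fewest neutrophil reads. With S100a8 left out, the difference in mean specific granule share, GC-treated minus vehicle-treated, was -9.88 percentage points, because vehicle-treated 1 and 2 then held specific granule reads alone.

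**Figure D2:**
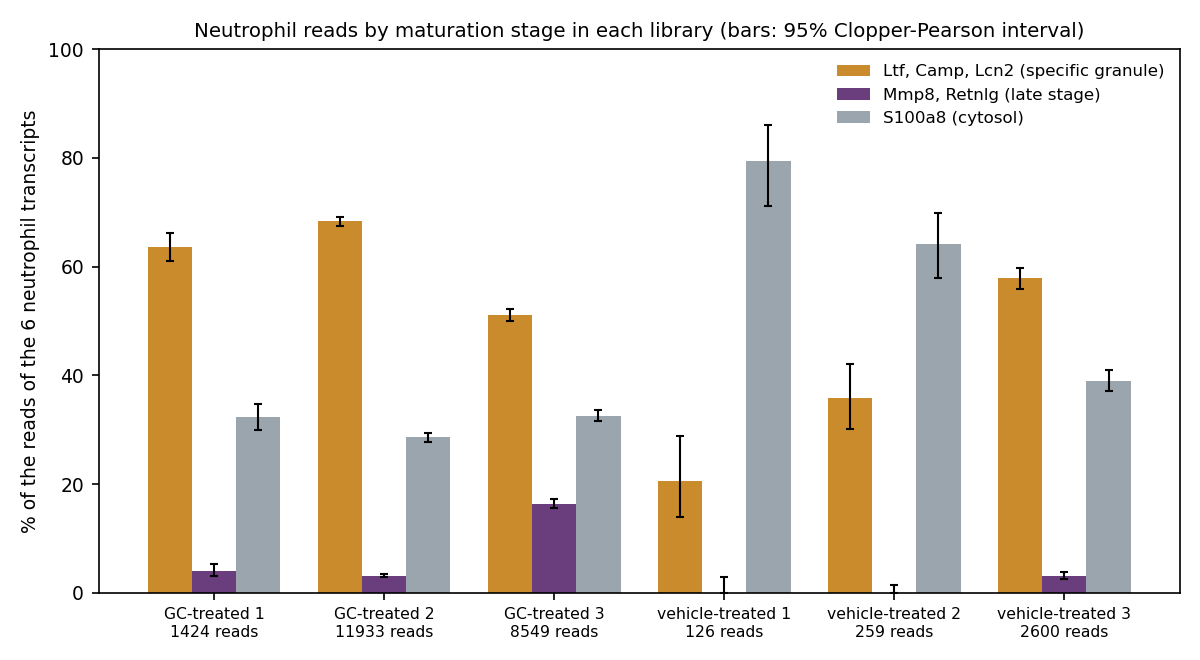
Share of the reads of the 6 neutrophil genes that fell on specific granule genes, late stage genes and S100a8 in each library, in percent, with GC-treated libraries to the left of vehicle-treated libraries. GC-treated 3 has the largest late stage share (16.4%), and S100a8 takes most of the reads of vehicle-treated 1 (79.4%) and vehicle-treated 2 (64.1%).

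Upstream sequence is shown for the genes whose peaks differ: Ltf and Lcn2 peaked in GC-treated 2, Mmp8 in GC-treated 3, and Cxcl12 was high in GC-treated 3 only. The windows are the 250 bases before the gene start, from RefSeq on GRCm38.p6, read 5′ to 3′ on the strand of the gene. Capitals mark matches to TTGCNNAA, a core of the sites bound by C/EBP factors, which drive granule genes in maturing neutrophils.
Ltf, chr9:111019042-111019291, + strand: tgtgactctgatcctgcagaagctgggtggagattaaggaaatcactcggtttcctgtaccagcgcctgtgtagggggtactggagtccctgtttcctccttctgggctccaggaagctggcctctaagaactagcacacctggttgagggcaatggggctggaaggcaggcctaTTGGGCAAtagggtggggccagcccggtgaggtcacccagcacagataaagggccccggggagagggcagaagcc
Lcn2, chr2:32387740-32387989, - strand: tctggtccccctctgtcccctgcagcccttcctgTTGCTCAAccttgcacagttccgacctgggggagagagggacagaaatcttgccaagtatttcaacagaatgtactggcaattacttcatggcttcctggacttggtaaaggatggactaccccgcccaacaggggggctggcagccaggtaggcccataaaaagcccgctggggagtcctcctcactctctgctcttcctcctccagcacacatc
Mmp8, chr9:7558179-7558428, + strand: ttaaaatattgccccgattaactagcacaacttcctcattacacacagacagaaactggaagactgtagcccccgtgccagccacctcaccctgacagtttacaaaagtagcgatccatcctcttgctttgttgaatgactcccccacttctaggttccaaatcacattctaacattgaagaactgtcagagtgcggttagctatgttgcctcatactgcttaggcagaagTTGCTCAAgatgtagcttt
Cxcl12, chr6:117168285-117168534, + strand: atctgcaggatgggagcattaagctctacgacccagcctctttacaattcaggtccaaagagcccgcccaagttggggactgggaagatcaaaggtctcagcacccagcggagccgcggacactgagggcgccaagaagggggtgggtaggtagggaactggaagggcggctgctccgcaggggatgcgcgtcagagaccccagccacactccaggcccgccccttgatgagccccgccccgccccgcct
TTGCNNAA, searched on both strands, was found in 9.56% of 32851 such windows and in 4 of the 7 members that had a window: Ltf (-75 to -68 from the gene start), Lcn2 (-216 to -209), Mmp8 (-19 to -12) and Retnlg (-246 to -239). The windows of Camp, S100a8 and Cxcl12 held no match, and that of Vcam1 was not analysed here. The looser TTNNGNAA, which overlaps it, was in 36.8% of windows and 5 of the 7. The palindromic glucocorticoid response element was in 0.387% of windows and 0 of the 7, and its AGAACA arm in 16.1% and 0. GAGGAAGT of PU.1 was in 2.44% of windows and 2 of the 7 (Mmp8 and S100a8), GGAAGT, which lies within it, in 19.7% and 2, and TGTGGT of RUNX factors in 14.05% and 0. Matches describe letters in these windows and show no binding, and they did not divide the specific granule from the late stage genes.

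Azurophil granule genes did not share the library order of the later genes. Mpo, which encodes myeloperoxidase, was read at 326, 375 and 221 normalized counts in GC-treated 1, 2 and 3, against 234, 17.3 and 795 in vehicle-treated 1, 2 and 3. Elane, the gene of neutrophil elastase, was read at 177, 25.8 and 240 normalized counts in the GC-treated libraries and at 170, 40.0 and 363 in the vehicle-treated libraries. Both were highest in vehicle-treated 3, as was Prtn3 (proteinase 3, 195 normalized counts there). Ms4a3, a membrane protein of granulocyte progenitors, was highest in GC-treated 3 at 119 normalized counts, against 99.1 in vehicle-treated 3. Mpo had an adjusted limma p of 0.75. Of the 7 listed azurophil genes, 6 were tested and 0 passed in either direction, with a median log2 fold change of 0.34 beside -0.0079 over all tested genes.

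Set against the specific granule genes, the 4 azurophil proteases and peroxidase (Mpo, Elane, Prtn3 and Ctsg) took 43.1%, 5.56% and 12.7% of the joint reads in GC-treated 1, 2 and 3. They took 94.8% (92.5% to 96.6%), 44.0% (36.3% to 51.9%) and 48.7% (46.8% to 50.5%) in vehicle-treated 1, 2 and 3. Vehicle-treated 1, with no Ltf read, therefore held azurophil transcripts at 518 normalized counts over the 4 genes, beside 593, 476 and 582 in GC-treated 1, 2 and 3. Specific granule reads outnumbered azurophil reads in all 3 GC-treated libraries. They also did so in vehicle-treated 2 (93 against 73 reads) and vehicle-treated 3 (1505 against 1426 reads), whose intervals include equal numbers. Every GC-treated share lay under every vehicle-treated share. The margin was narrow, as the 43.1% of GC-treated 1 lay within the interval of vehicle-treated 2, and the difference was not tested.

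The other specific granule genes of the list had the same peak libraries. Chil3, which encodes a chitinase-like protein, was read at 119, 1985 and 1594 normalized counts in GC-treated 1, 2 and 3, against 16.4, 319 and 498 in vehicle-treated 1, 2 and 3; near-identical family members make its counts uncertain. Cd177, a surface glycoprotein stored in specific granules in human neutrophils, was read at 96.1, 1155 and 803 normalized counts in the GC-treated libraries and at 0, 35.7 and 236 in the vehicle-treated libraries. All 8 genes of this list in the table, which include Ltf, Camp and Lcn2, were highest in GC-treated 2 or GC-treated 3, as were 43.4% of all table genes. The 7 tested all had positive log2 fold changes, with a median of 2.93 (the value of Camp), and 0 passed the adjusted threshold. As Ltf, Camp and Lcn2 were chosen with their values known and are among the 7, nothing is read from these counts.

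The gelatinase and late stage list was mixed. Its most abundant gene, Adam8, which encodes a membrane metalloprotease also made outside neutrophils, was read at 5268, 8007 and 6319 normalized counts in GC-treated 1, 2 and 3, against 6640, 5255 and 8270 in vehicle-treated 1, 2 and 3. Mmp9, the gene of gelatinase B, was read at 95.2, 380 and 541 normalized counts in the GC-treated libraries and at 236, 118 and 347 in the vehicle-treated libraries. Like Mmp8, Mmp9 was highest in GC-treated 3, but it was not low in vehicle-treated 1. Itgam, which encodes CD11b, ranged from 155 to 197 normalized counts in GC-treated and from 139 to 254 in vehicle-treated libraries. Of the 7 tested genes, which include Mmp8 and Retnlg, 5 had positive and 2 negative log2 fold changes, with a median of 1.76, and 0 passed.

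Among the cytosolic and mature stage genes, which include S100a8, 12 of 18 listed were in the table and 6 were tested. Of these 6, 5 had positive log2 fold changes (median 0.76) and 0 passed. Csf3r, the receptor of granulocyte colony-stimulating factor, was read at 9.52, 124 and 120 normalized counts in GC-treated 1, 2 and 3, against 10.9, 14.1 and 84.5 in vehicle-treated 1, 2 and 3. Il1r2, a decoy receptor of interleukin 1, reached 228 normalized counts in GC-treated 3, against 134 in vehicle-treated 3, the highest of each group. G0s2, an inhibitor of lipolysis, spanned 266 to 351 normalized counts in GC-treated and 212 to 229 in vehicle-treated libraries, with an adjusted limma p of 0.62.

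The tested transcription factors of granulopoiesis had log2 fold changes from 0.11 for Gfi1 to 1.42 for Cebpe. All 5 tested of 6 listed had positive log2 fold changes with a median of 0.47, and 0 passed. Gfi1 and Cebpb were the most abundant. Gfi1 ranged from 4361 to 4894 normalized counts in GC-treated and from 3741 to 4560 in vehicle-treated libraries, and Cebpb from 1099 to 1294 and from 706 to 1000. Spi1, which encodes PU.1, ranged from 122 to 195 normalized counts in GC-treated and from 96.2 to 156 in vehicle-treated libraries, and Cebpd from 19.0 to 52.6 and from 8.73 to 29.2. Cebpe, the C/EBP factor needed for specific granules, was named after its values were seen. It was read at 2.60, 18.9 and 21.1 normalized counts in GC-treated 1, 2 and 3, against 2.18, 1.08 and 11.5 in vehicle-treated 1, 2 and 3, with its 3 highest values in the 3 libraries highest in Ltf.

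**Figure D3:**
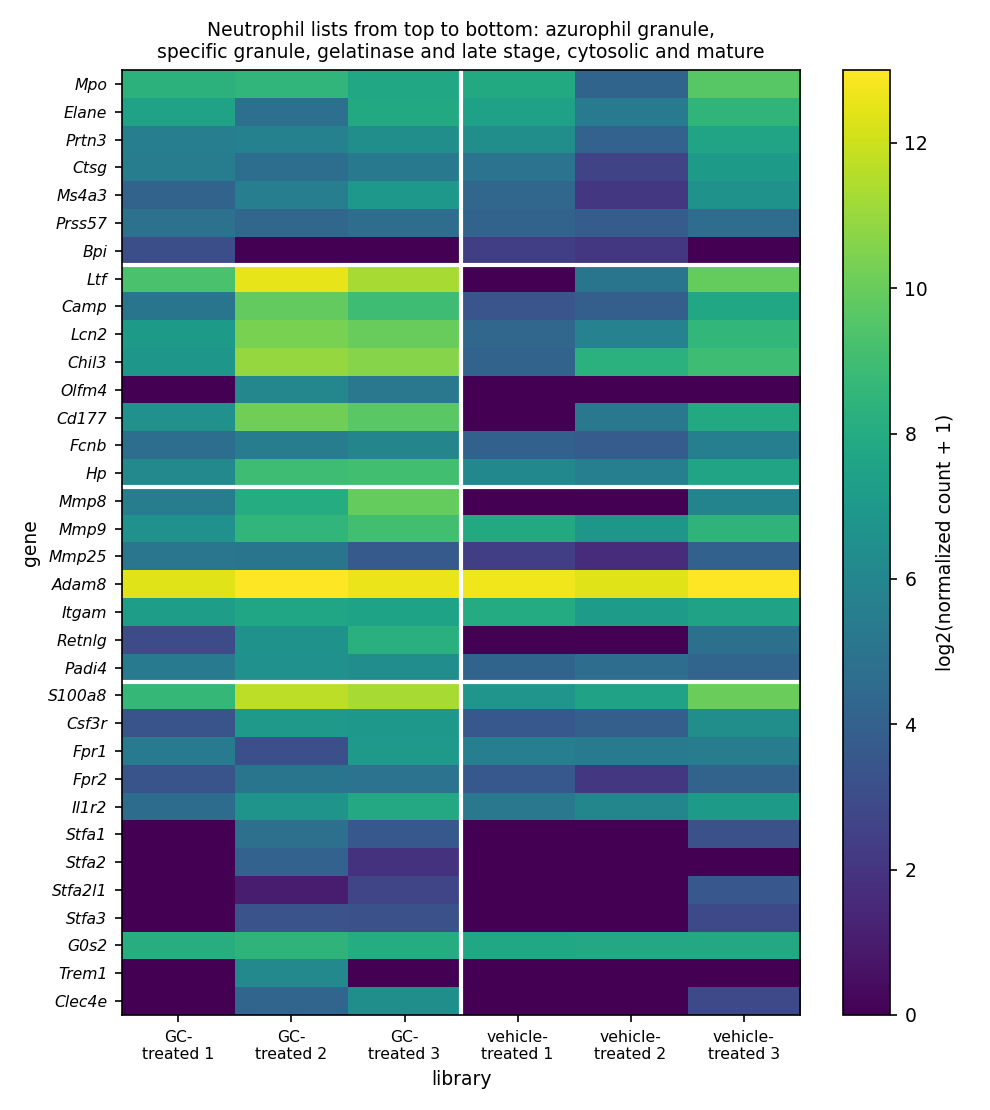
Heat map of log2(normalized count + 1) of the azurophil, specific, late stage and mature stage genes in each library, with GC-treated libraries to the left of vehicle-treated libraries. Specific granule genes are brightest in GC-treated 2 and GC-treated 3, while Mpo and Elane are brightest in vehicle-treated 3 (795 and 363 normalized counts).

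Cxcl12 placed the libraries in another order than the granule genes did. It encodes the chemokine CXCL12 and lies on chromosome 6 (117144945 to 117158328, + strand, GRCm39). It was read at 32.0, 11.9 and 721 normalized counts in GC-treated 1, 2 and 3, against 30.5, 58.4 and 31.3 in vehicle-treated 1, 2 and 3. GC-treated 3 (784 reads) stood apart, while GC-treated 2, the library with the most Ltf, Camp, Lcn2 and S100a8, had the least Cxcl12 (12 reads). The other 4 libraries lay between 30.5 and 58.4 normalized counts. The 95% Poisson interval of vehicle-treated 1, 20.3 to 44.1 normalized counts, holds the values of GC-treated 1 and vehicle-treated 3, and it overlaps at its lower end the interval of GC-treated 2, 6.15 to 20.8.

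The group means of Cxcl12 were 255 ± 403 normalized counts in GC-treated and 40.1 ± 15.9 in vehicle-treated libraries (SD, n = 3 each). The log2 fold change was 0.78 ± 1.24 (SE, n = 3 each) with an adjusted limma p of 0.82. GC-treated 3 decided this value, as the log2 fold change was -0.93 without it. The count-based edgeR fit gave 2.67.

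Over the 6 libraries, log2 Cxcl12 and log2 Ltf had a Pearson's r of 0.14 (exact permutation p = 0.76, adjusted 0.88) and a Spearman's rho of -0.086 (exact permutation p = 0.92, adjusted 0.92). These p-values are two-sided and adjusted over the 6 neutrophil genes, and they describe pairs proposed with the values known. The r was 0.16 for Camp, 0.21 for Lcn2 and 0.21 for S100a8, with the same rho as for Ltf. The late stage genes gave slightly larger values, an r of 0.35 for Mmp8 and 0.38 for Retnlg with a rho of 0.12, and exact permutation p-values of 0.56 and 0.52 (adjusted 0.88 for both). No relation was detectable with any of the 6 genes over 6 libraries.

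The positive sign of each of the 6 Pearson correlations rested on GC-treated 3, and rho was not computed again without it. Without it r was -0.55 for Ltf, -0.80 for Camp, -0.72 for Lcn2, -0.76 for Mmp8, -0.80 for Retnlg and -0.78 for S100a8, over 5 libraries, and none passed an exact permutation test. For Ltf, r was also -0.012 without vehicle-treated 1. Without the 2 libraries farthest from the median of the granule gene, r was 0.0056 for Ltf, 0.61 for Camp, 0.66 for Lcn2, 0.67 for Mmp8, 0.66 for S100a8 and -0.93 for Retnlg. The libraries left out differ between genes: GC-treated 3 was among them for Retnlg only.

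**Figure D4:**
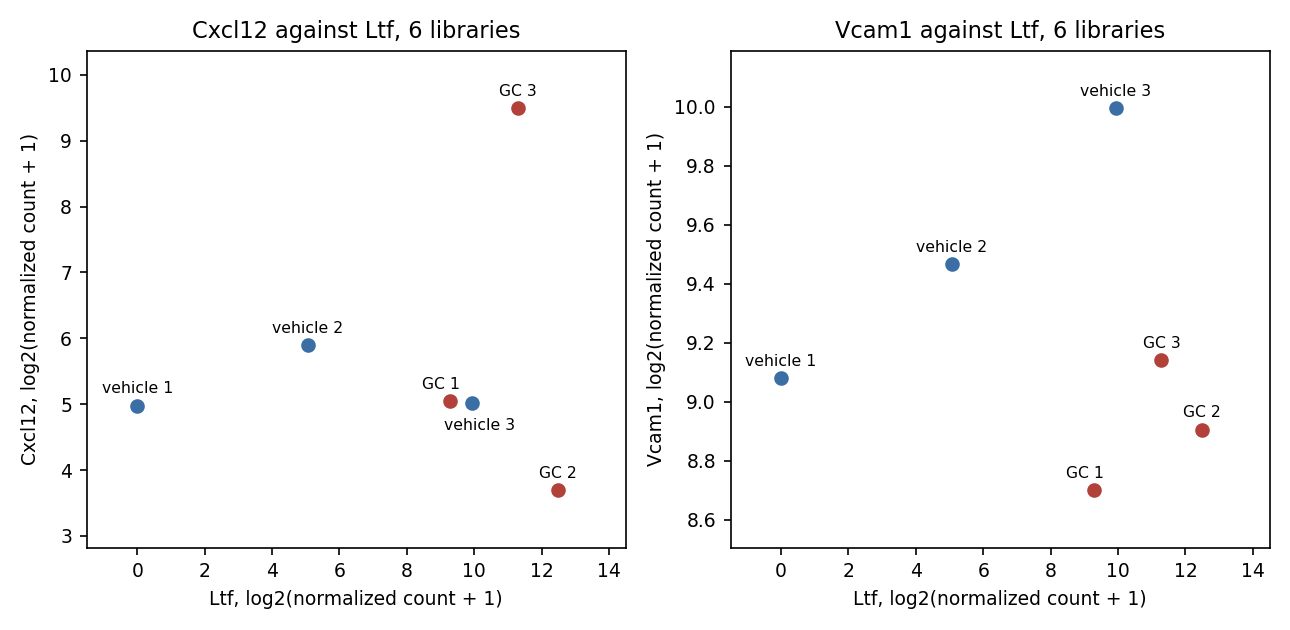
Cxcl12 (left) and Vcam1 (right) against Ltf in the 6 libraries, both axes as log2(normalized count + 1), with GC-treated libraries in red and vehicle-treated libraries in blue. Cxcl12 is high in GC-treated 3 and lowest in GC-treated 2, which lie side by side on the Ltf axis, and Vcam1 has no common direction over the 6 points.

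Some other stromal genes were highest in the library that was high in Cxcl12, and others were not. Lepr, the leptin receptor that marks perivascular stromal cells, was read at 68.0 normalized counts in GC-treated 3 and was at 0 in the other 5 libraries, as were Igfbp5 (92.8 normalized counts) and Pdgfra (12.9). These 3 genes are among the 78 table genes (0.555%) read in GC-treated 3 alone. Adipoq, the adiponectin gene, was read by 60 reads in GC-treated 3 and by at most 11 in another library, and Col1a2, a collagen I chain, by 199 and by at most 13. In the other direction, Pdgfrb (27.1 normalized counts in vehicle-treated 3), Nes (30.3 in GC-treated 1) and Col3a1 (8.66 in GC-treated 1) were at 0 in GC-treated 3, and Foxc1 had 1 read there, as in vehicle-treated 3. These 9 genes were named after their values were seen. Among the 21 stromal genes that were read, 10, including Cxcl12 itself, were highest in GC-treated 3, as were 26.4% of all table genes. This was not particular to stromal genes, as 9 of 19 monocyte and macrophage genes and 9 of 12 CD8 T cell genes were also highest there. In other lists fewer were, with 3 of 20 endothelial and 0 of 9 erythroid genes.

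The stromal list as a whole had no common direction between groups. Of its 24 genes, which include Cxcl12 and Vcam1, 21 were read and 9 were tested. There were 5 positive and 4 negative log2 fold changes, a median of 0.012 and 0 past the adjusted threshold. Spp1, which encodes osteopontin and is also made by activated T cells, was read at 482, 693 and 1759 normalized counts in GC-treated 1, 2 and 3, against 420, 322 and 287 in vehicle-treated 1, 2 and 3. The 2 most abundant listed genes were high in all libraries: Esm1, the gene of the proteoglycan endocan, at 3087 to 4072 normalized counts in GC-treated and 2160 to 3337 in vehicle-treated libraries, and Runx2 at 1214 to 1837 and 1976 to 2220. Runx2, a transcription factor of bone formation, was lowest in GC-treated 3, where Cxcl12 was highest.

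**Figure D5:**
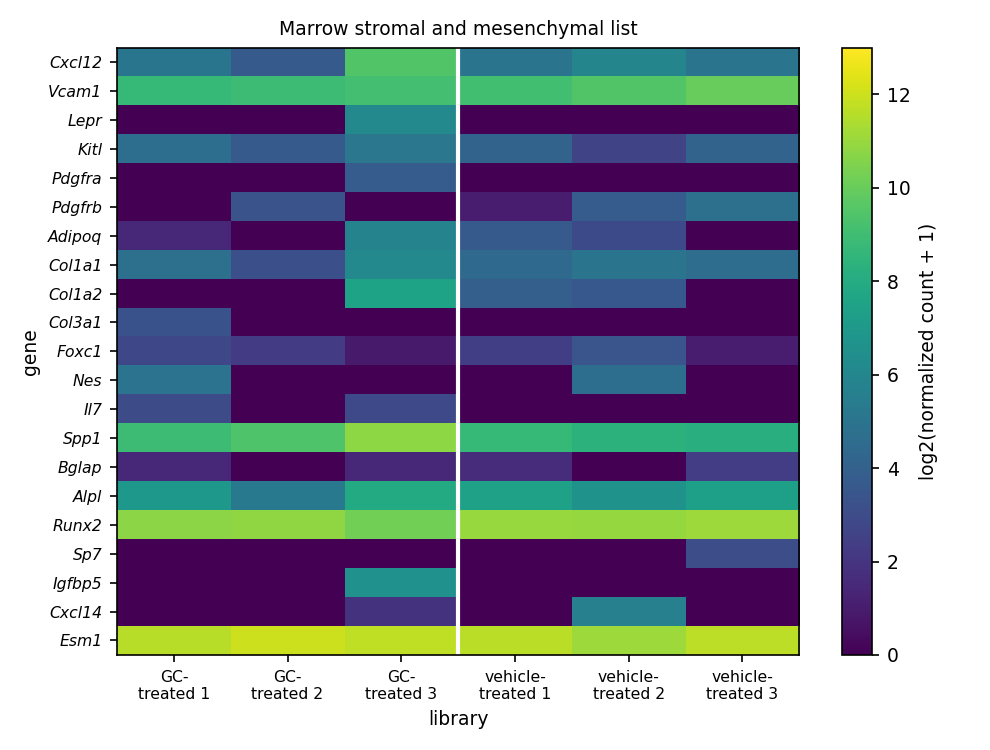
Heat map of log2(normalized count + 1) of the 21 stromal genes of the table in each library, with GC-treated libraries to the left of vehicle-treated libraries. Lepr, Pdgfra and Igfbp5 are above 0 in GC-treated 3 only, and Cxcl12, Adipoq and Col1a2 are brightest there.

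Vcam1 had a narrower spread than the other genes and a lower mean in the GC-treated group, short of the adjusted threshold. It encodes an adhesion molecule and lies on chromosome 3 (115903598 to 115923355, - strand), where it overlaps the noncoding gene Gm43109 on the other strand. It was read at 415, 478 and 563 normalized counts in GC-treated 1, 2 and 3, against 540, 706 and 1019 in vehicle-treated 1, 2 and 3. GC-treated 3 lay above vehicle-treated 1, so the groups overlapped, and the other 8 of 9 pairs of libraries had the lower value in GC-treated. The means were 485 ± 74.6 in GC-treated and 755 ± 243 in vehicle-treated libraries (SD, n = 3 each). The log2 fold change was -0.60 ± 0.24 (SE, n = 3 each) with an adjusted limma p of 0.62. Markers of macrophages, which also make VCAM1, had log2 fold changes of both signs, short of the adjusted threshold. Cd163, a macrophage scavenger receptor gene named after its values were seen, was read at 105, 105 and 95.6 normalized counts in GC-treated 1, 2 and 3, against 340, 250 and 246 in vehicle-treated 1, 2 and 3. Its log2 fold change was -1.43. Those of Mrc1 and Spic were -1.30 and -0.68 and that of Adgre1 was 1.32, all likewise named after their values were seen. Each of these genes had an adjusted limma p of 0.62. Over the 18 tested monocyte and macrophage genes 13 log2 fold changes were negative and 5 positive (median -0.17), where 48.5% of all tested genes were positive. Of the 18 genes 0 passed, and their part in the level of Vcam1 was not tested. The log2 SD of Vcam1 over the 6 libraries was 0.46, which 2239 of the tested genes exceeded, against 1.99 for Cxcl12, which 209 exceeded.

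Vcam1 and Cxcl12 had an r of 0.063 (exact permutation p = 0.87) and a rho of 0.31 (exact permutation p = 0.56) over the 6 libraries. With the 6 neutrophil genes, the r of Vcam1 ran from -0.16 for Mmp8 to 0.041 for Camp, with adjusted exact permutation p-values of 0.99 for r and 0.98 for rho. Within the vehicle-treated group Vcam1 ordered the libraries as the granule genes did, and within the GC-treated group as Mmp8 and Retnlg did, an order over 3 libraries each that was not tested. Per kilobase of exon, Vcam1 averaged 54.0 ± 8.30 in GC-treated and 84.0 ± 27.1 in vehicle-treated libraries, and Cxcl12 30.5 ± 48.3 and 4.80 ± 1.90 (SD, n = 3 each).

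Receptors of the stromal proteins are T cell genes as well. Cxcr4, the receptor of CXCL12, was read at 577, 259 and 379 normalized counts in GC-treated 1, 2 and 3, against 633, 1307 and 550 in vehicle-treated 1, 2 and 3. Itga4, the α4 chain of the receptor of VCAM1, was read at 23137, 16090 and 8796 normalized counts in the GC-treated libraries and at 24793, 29933 and 17729 in the vehicle-treated libraries. Cxcr4 was lowest in GC-treated 2 and Itga4 in GC-treated 3, and both were highest in vehicle-treated 2. Itgb1 was the most abundant of the 7 tested receptor genes of the list, which also holds receptors of S100A8 and LCN2. Of the 7, Tlr4 (0.0028) had a positive and 6 a negative log2 fold change (median -0.33), and 0 passed.

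The genes most like each pattern were ranked by Pearson's r over the 6 libraries, among 2288 genes with a mean of at least 20 normalized counts and a log2 range of at least 1. Most like Cxcl12 were Bphl (r = 0.997), Apoe (0.98), Trbv13-1 (0.95), Dhrs9 (0.93) and Pdk2 (0.93). Apoe, the apolipoprotein E gene, was read at 548, 489 and 1053 normalized counts in GC-treated 1, 2 and 3, against 573, 726 and 596 in vehicle-treated 1, 2 and 3. Most like Vcam1 were Ifi207 (0.98), Bbs5 (0.96), Il11ra1 (0.96) and Fam161b (0.95).

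The mean of the 6 neutrophil genes was most like Lrg1 (0.98), Kctd14 (0.98), Chil1 (0.98), Itgb2l (0.98) and Cd33 (0.97). Lrg1, a glycoprotein gene of neutrophils, was read at 33.8, 278 and 365 normalized counts in GC-treated 1, 2 and 3, against 7.63, 7.57 and 79.3 in vehicle-treated 1, 2 and 3. Itgb2l, an integrin β chain of mouse neutrophils, stood at 3.46, 112 and 97.4 normalized counts in the GC-treated libraries and at 0, 1.08 and 27.1 in the vehicle-treated libraries. An r of at least 0.9 was reached by 42 genes with the neutrophil mean, by 10 with Cxcl12 and by 5 with Vcam1. The ranking covers many genes over 6 points and is a description.

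Markers of other cells that BM could hold were read beside these genes. The summed level of 19 monocyte and macrophage genes, was 23873 to 28361 normalized counts in GC-treated and 20481 to 29076 in vehicle-treated libraries, most of it Ccr2, which T cells also make. Without Ccr2 it was 3878 to 6025 and 5226 to 5844 normalized counts. That of 20 endothelial genes was 3068 to 3489 and 3244 to 3655, most of it Pecam1 at 2505 to 3118 and 2866 to 3062. The summed 9 erythroid genes, led by Hba-a1, whose near-identical copy makes it uncertain, lay at 408 to 623 and 594 to 916. The 7 B lineage genes lay at 981 to 1318 and 907 to 1274, most of it Cd79b at 893 to 1226 and 859 to 1188. Platelet genes, led by Itga2b, summed to 19.0 to 55.1 and 22.9 to 112 normalized counts, and eosinophil, basophil and mast cell genes, led by Ear2, to 82.4 to 157 and 89.4 to 172. In none of these lists did a gene pass the test, and none of the sums spanned the range of the specific granule list, 1094 to 11834 normalized counts in GC-treated and 127 to 2540 in vehicle-treated libraries. The study reports a sort that was not fully pure. The part of other cells in the levels of the neutrophil and stromal genes was not tested.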

How the data were processed

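Bulk RNA-Seq libraries of sorted donor CD8+ T cells, 3 GC-treated and 3 vehicle-treated by their labels, were analysed. The authors aligned reads with STAR to GRCm39, counted them per gene and ran DESeq2; the submitters' processing notes also name bcl2fastq (versions: not given in the sources used here). Deposited was a normalized signal for 14051 genes, in which the authors had divided read counts by 1 size factor per library. All values (100%) were whole multiples of 1 read within 0.001, so reads were recovered; the step of GC-treated 2 lies too near 1 for the automatic check of that column.

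Members and gene lists were chosen with earlier results of these data known. Genes with at least 10 normalized counts in at least 3 libraries (11649) were fitted with limma 3.58.1 (R 4.3.3) on log2(value + 1) with trended variances, Benjamini-Hochberg adjustment and a threshold of 0.05. Alternatives were edgeR 4.0.16 and DESeq2 1.42.0 on reads, other filters, pseudocounts and scalings, a block for the replicate number, and omission of each library. The fit was tested on simulated data with the same spread setting for every gene. That does not cover genes that vary between libraries as much as the neutrophil genes did. An exact permutation test of 3 against 3 libraries cannot go below p = 0.1. Correlations used exact permutation of all pairings. Named were the members, the most abundant gene of each list (up to 4 of granule and stromal lists) and the 5 genes most like each pattern; exceptions are marked, and 1 gene that this rule names is not reported here. Coordinates are from Gencode M39 on GRCm39 (13727 symbols found) and promoters from RefSeq on GRCm38.p6. Lengths per kilobase are the union of annotated exons.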

Additional observations from a re-analysis of the deposited data

How the results depend on the processing

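None of the 8 genes passed an adjusted p of 0.05 under any of the alternatives, and of 118 alternative log2 fold changes 1 turned direction: Cxcl12, which ranged from -0.93 (without GC-treated 3) to 1.98 when each library was left out. With each library omitted, the log2 fold change ranged from 3.53 to 8.49 for Ltf, 1.97 to 4.396 for Camp, 1.97 to 4.12 for Lcn2, 4.82 to 7.83 for Mmp8, 3.23 to 5.97 for Retnlg and 1.79 to 3.42 for S100a8. The count of neutrophil genes with a positive log2 fold change was 6 throughout, or 5 with a filter at 50, where Retnlg was not tested (nor was Cxcl12). Over all genes DESeq2 called 2 lower, and leaving out each library gave 0 to 2 higher and 0 to 43 lower, the most without GC-treated 1. The cause was not tested. The difference in specific granule share ranged from 14.1 to 32.7 percentage points with each library omitted in turn, and it was -9.88 without S100a8, where by construction vehicle-treated 1 and 2 keep specific granule reads alone.

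Of 108 alternative correlations 21 turned sign and 0 passed. Leaving out each library, r with Cxcl12 ranged from -0.55 to 0.48 for Ltf, -0.80 to 0.66 for Camp, -0.72 to 0.67 for Lcn2, -0.76 to 0.66 for Mmp8, -0.80 to 0.73 for Retnlg and -0.78 to 0.69 for S100a8. With Vcam1 it ranged from -0.38 to 0.14 for Ltf, -0.27 to 0.32 for Camp, -0.28 to 0.23 for Lcn2, -0.45 to -0.00073 for Mmp8, which kept its sign, -0.33 to 0.11 for Retnlg and -0.30 to 0.22 for S100a8.

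With the replicate number as a block, 0 genes were called higher and 0 lower. At an unadjusted limma p under 0.05, 6 neutrophil genes were then higher, against 5 without the block. The SE of the log2 fold change of Ltf was 1.21 with the block and 2.02 without it. Over all tested genes, the same-numbered libraries' deviations correlated at 0.063, -0.14 and 0.13. The labels do not say whether equal numbers pair the samples, and correlations over so few libraries cannot decide it.

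Counting error is small for Ltf or S100a8 in most libraries but not for Retnlg in GC-treated 1 (8 reads), Camp in vehicle-treated 1 (9 reads) or Cxcl12 in GC-treated 2 (12 reads). The spread between 3 libraries of a group, not depth, is the larger error for the neutrophil genes.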
